A study of Mus musculus with 10 samples.

Results

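The genes described here encode the machinery that attaches chromosomes to the spindle and times their separation: kinesins, proteins named after the centromere (Cenp), Aurora kinases, and Bub and Mad proteins of the mitotic checkpoint. They were taken by name, as every row of the deposited expression table whose gene name starts with Kif followed by a digit or c, with Cenp followed by a letter, with Bub1, Bub3, Mad1l or Mad2l, or is Aurka, Aurkb or Aurkc. The rule found 51 of 21437 genes, and each of the 51 names matched 1 gene of the GENCODE M21 annotation (GRCm38). They comprised 2 Aurora kinases, 7 Bub and Mad genes, 13 kinesins that act on the mitotic or meiotic spindle or at centrioles, 11 other names starting with Kif, 14 genes of CENP-A, CENP-B and the constitutive centromere-associated network (CCAN), and 4 other Cenp genes. Kif4-ps, Kifc5c-ps and Kif22-ps are pseudogenes, and Kif1bp and Mad2l1bp encode binding partners rather than family members. Aurkc, Kif15, Kif18b, Kifc5b, Cenpk, Cenps and Cenpx, which belong to the same families, were not analysed here.

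The values were FPKM, fragment numbers scaled to exon length and to the mapped fragments of a library, in 10 RNA-seq libraries from mouse, 2 for each of 5 groups. MII oocytes (eggs arrested at metaphase of meiosis II, collected 16 h after hCG), control middle 2-cell embryos (40 h) and control early 4-cell embryos (55 h) carried the genotype label wild type, and 2-cell and 4-cell embryos labelled Ago2-kd had been depleted of Argonaute 2, the endonuclease of the RNAi pathway. According to the Methods, depletion was done in zygotes with siRNAs against Ago2 and AGO2 antibodies, a scrambled siRNA served as the negative control, and all females were 7 weeks old. The labels give the strain ICR for every sample, whereas the Methods give ICR females for the oocytes and F1 crosses for the embryos, so stage and strain cannot be told apart between oocytes and embryos. Injection is not stated for the control libraries, nor is the number of oocytes or embryos in a library. The label for the material of every library, MII oocytes included, is embryo blastomeres. Ago2 mRNA was not analysed here.

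Kinetochores are built on centromeric chromatin that contains the histone variant CENP-A. The CCAN links this chromatin to the outer kinetochore, which binds microtubules. Kinetochores without microtubules recruit Bub and Mad proteins, which hold the anaphase-promoting complex (APC/C) in check, while Aurora kinases correct wrong attachments and kinesins build the spindle, move chromosomes and finish cytokinesis. A mouse oocyte stores the mRNAs for these proteins during growth, keeps many of them with short poly(A) tails, and uses them to complete meiosis and the divisions that follow before the embryo transcribes its own genome.

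Promoter sequence is shown for 4 of the genes because it displays the letters shared by many cell-cycle genes in a small space: CCAAT, bound by NF-Y, and TTTGAA, the core of the cell-cycle-genes homology region. Each run holds the 200 bases upstream of the RefSeq start site (GRCm38.p6), 5′ to 3′ on the strand of the gene, with both motifs in capitals. ATTGG and TTCAAA are the same motifs on the opposite strand.
Kif11, chr19:37376182-37376381, plus strand: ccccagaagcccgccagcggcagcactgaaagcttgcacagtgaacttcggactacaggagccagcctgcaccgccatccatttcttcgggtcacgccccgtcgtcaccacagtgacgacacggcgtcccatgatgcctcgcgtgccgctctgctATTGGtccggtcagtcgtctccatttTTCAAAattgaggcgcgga
Kif22, chr7:127042421-127042620, minus strand: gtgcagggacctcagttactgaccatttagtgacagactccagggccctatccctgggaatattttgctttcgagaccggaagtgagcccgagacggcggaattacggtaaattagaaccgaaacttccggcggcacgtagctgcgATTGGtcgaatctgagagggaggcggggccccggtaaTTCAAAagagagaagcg
Cenpn, chr8:116921540-116921739, plus strand: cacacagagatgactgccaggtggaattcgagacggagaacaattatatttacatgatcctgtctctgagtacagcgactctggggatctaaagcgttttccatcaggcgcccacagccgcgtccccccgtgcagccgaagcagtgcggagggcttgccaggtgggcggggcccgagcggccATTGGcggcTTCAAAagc
Cenpw, chr10:30200541-30200740, minus strand: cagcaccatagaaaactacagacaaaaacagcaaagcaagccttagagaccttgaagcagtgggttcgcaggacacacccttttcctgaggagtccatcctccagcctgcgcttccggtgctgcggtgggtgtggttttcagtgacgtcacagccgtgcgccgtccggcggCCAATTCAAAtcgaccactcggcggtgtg
Kif11 encodes the motor that pushes spindle poles apart, Kif22 a chromokinesin that pushes chromosome arms, Cenpn a reader of the CENP-A nucleosome, and Cenpw the histone-fold partner of CENP-T. A window from 250 bases before to 50 bases after the start was given for 42 of the 51 genes. TTTGAA was found on either strand in 16 of these 42 genes (38.1%) and in 20.2% of 27025 genes with a window. CCAAT was found in 27 (64.3%) against 41.1% of all genes, TTTAAA in 8 (19.0%) against 14.9%, and the E2F motifs TTTGGCGC or TTTCCCGC in 4 (9.52%) against 1.80%. A match describes the letters only.

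The ends of the transcripts are shown because stored oocyte mRNAs are recognised there, through the motifs TTTTAT and TTTTAAT (cytoplasmic polyadenylation elements, bound by CPEB) and the signal AATAAA or ATTAAA. Each run holds 30 bases from the last 100 bases of the longest complete protein-coding transcript in GENCODE M21 (GRCm38), inside its last exon, with these motifs in capitals.
Bub1b, chr2:118641562-118641591, plus strand: gtaTTTTATAATAAAatagtttttgttaca
Cenph, chr13:100759707-100759736, minus strand: acTTTTATaacttaaggAATAAAaagaata
Kif11, chr19:37421830-37421859, plus strand: aattttttaaATTAAAttaTTTTAATtttt
Kif18a, chr2:109341709-109341738, plus strand: taTTTTATtacttggtatATTAAAgatgta
Aurkb, chr11:69051626-69051655, plus strand: caTTTTATAATAAAgtcttaaatgtttcat
Among 48 of the genes with such a transcript, 13 (27.1%) had TTTTAT or TTTTAAT within the last 100 bases on the transcript strand, against 16.7% of 21810 protein-coding genes. These 13 were Aurka, Aurkb, Bub1b, Cenpe, Cenph, Cenpl, Cenpn, Cenpu, Kif18a, Kif22, Kifc1, Kif11 and Kif20b. AATAAA or ATTAAA lay within the last 40 bases in 34 of the 48 (70.8%) and in 70.2% of all genes. These annotated ends were not compared with the ends in the libraries.

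The sum of FPKM ranged from 178681 to 458874 per library, read numbers are unknown, and counting error has no interval here. Exact zeros and values near 0 beside a high value in the other replicate were frequent: of the genes above 10 FPKM in the other replicate, 1.61% to 5.81% were below 0.1 FPKM in 9 libraries, and 14.6% in replicate 1 of the 4-cell Ago2 kd group, which stood apart. Values of 0 are therefore given as listed at 0. The oocyte marker genes Zp1, Zp2, Zp3, Gdf9, Bmp15 and Mos summed to 4206 and 4888 FPKM in MII oocytes, to between 568 and 999 at the 2-cell stage and to between 2.78 and 30.9 at the 4-cell stage. Of 6 genes that mark the 2-cell stage, the 4 with a row (Zscan4d, Tcstv1, Tcstv3 and Zfp352) summed to between 321 and 659 FPKM in 2-cell libraries and to at most 115 in the others. Among them, Tcstv3 and Zfp352 were highest in the 2-cell libraries. Tcstv1 was at 71.6 and 81.5 FPKM in oocytes and 56.6 and 62.1 in 2-cell controls. Zscan4d was at 51.3 FPKM in replicate 1 of the 2-cell controls and listed at 0 elsewhere. Of 10 cumulus and granulosa cell markers only Foxl2 had a row, and it was listed at 0 in the 10 libraries.

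The 51 genes differed widely in level. In MII oocytes 26 genes reached 1 FPKM in both libraries, against 18 in 2-cell controls, 15 in 2-cell Ago2 kd embryos, 19 in 4-cell controls and 14 in 4-cell Ago2 kd embryos. This count was not made for all genes. In single libraries, 30 and 27 of the 51 did so in MII oocytes and 16 and 27 in 4-cell Ago2 kd embryos. Of all genes, 5452 and 5202 reached 1 FPKM in those oocyte libraries and 4885 and 5823 in those Ago2 kd libraries. The 16 and the 4885 came from replicate 1, the library with the most values near 0. Together they made up 0.547% and 0.633% of the FPKM of the oocyte libraries, 0.343% and 0.421% in 2-cell controls, and 0.314% and 0.352% in 4-cell controls. In Ago2 kd embryos the shares were 0.287% and 0.295% at the 2-cell stage and 0.567% and 0.530% at the 4-cell stage. The heat map of all 51 genes shows how uneven this signal was. Cenpn, Bub1b and Cenph together held 65.0% and 63.1% of the summed FPKM of the 51 genes in the oocyte libraries. Mad2l1bp was the highest of the 51 in each 4-cell library, with 23.7% and 31.4% of the sum in controls and 53.9% and 34.2% in Ago2 kd embryos.

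**Figure D1:**
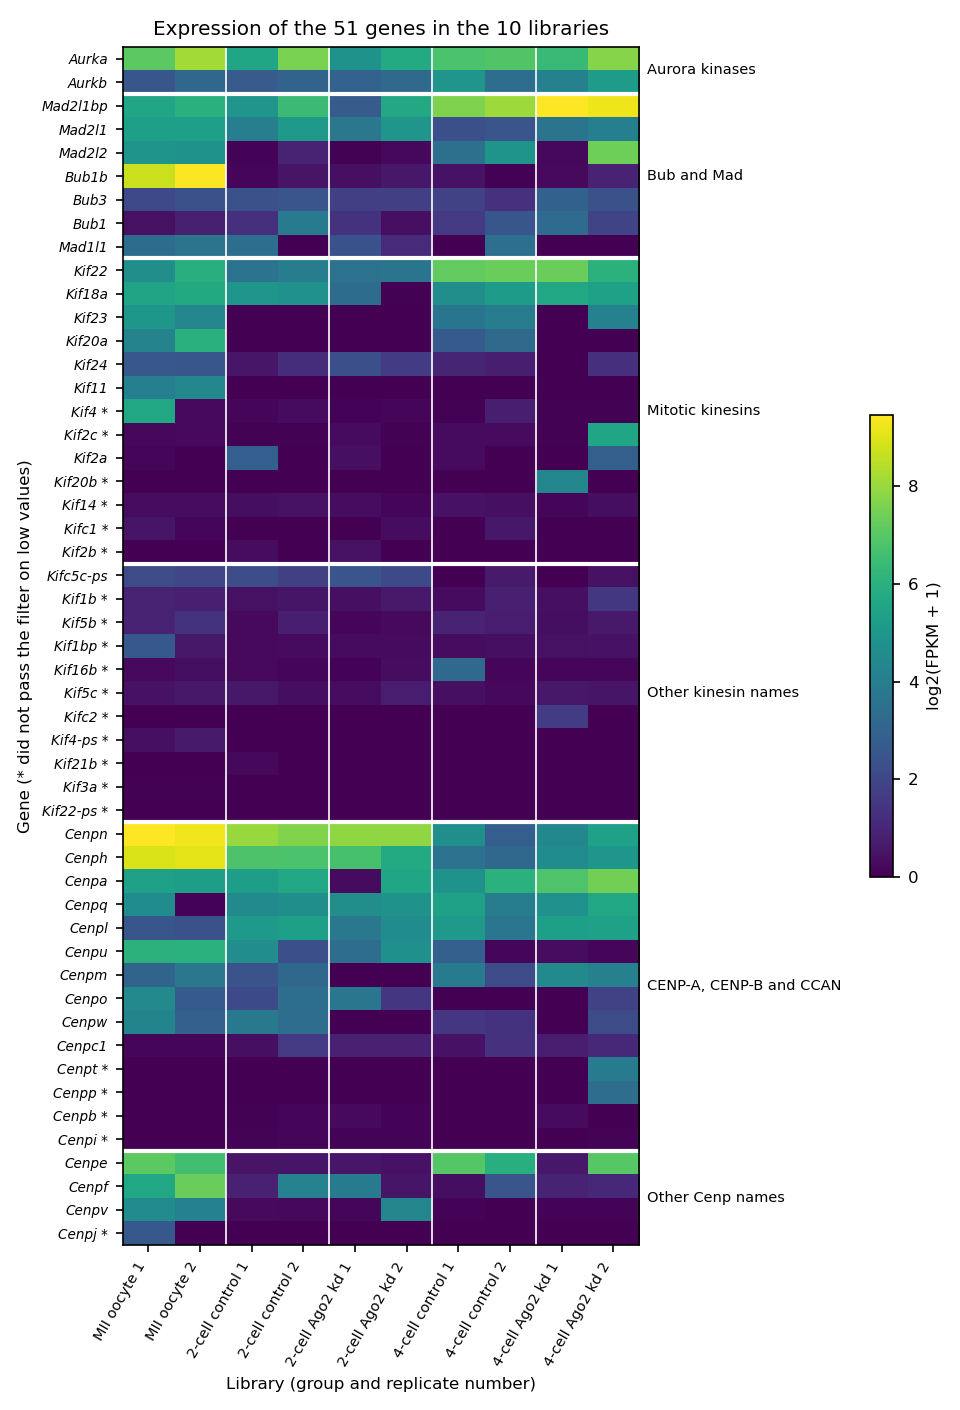
Expression of the 51 genes (rows, grouped by role and sorted by mean level) in the 10 libraries (columns) as log2(FPKM + 1). The oocyte columns hold the brightest cells for Bub1b, Cenph and Cenpn, the 4-cell columns for Mad2l1bp and Kif22, and most kinesin rows without a spindle role stay dark; an asterisk marks the 21 genes that did not pass the filter on low values.

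Genes that reached 1 FPKM in 2 or more of the 10 libraries were tested, which were 30 of the 51 and 8726 of all genes. The test was limma on log2(FPKM + 1) over all 10 libraries, with Benjamini-Hochberg adjustment over the 8726 genes and a call at an adjusted p below 0.05. The 30 comprised both Aurora kinases, all 7 Bub and Mad genes, 7 of 13 spindle kinesins, 1 of 11 other Kif names, 10 of 14 CENP-A, CENP-B and CCAN genes and 3 of 4 other Cenp genes. Of the other 21 genes, 11 reached 1 FPKM in 1 library only and 10 in none. Kif2c, the microtubule depolymerase MCAK, was at 46.5 FPKM in replicate 2 of the 4-cell Ago2 kd group and at or below 0.217 elsewhere. Kif4, a chromokinesin, was at 50.1 FPKM in replicate 1 of the MII oocytes and at or below 0.728 elsewhere. Kif20b, Cenpt and Cenpp reached 19.4, 13.7 and 9.35 FPKM, each in 1 of the 4-cell Ago2 kd libraries, and were listed at 0 in the other 9. Kifc1, a kinesin directed to minus ends, peaked at 0.522 FPKM. The transport kinesins Kif5b and Kif3a, which carry cargo along microtubules between divisions, peaked at 1.65 and 0.0481 FPKM.

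From MII oocyte to 2-cell control embryo, 7 of the 30 tested genes fell and 1 rose. The 7 were the checkpoint gene Bub1b, the kinetochore motor Cenpe, the spindle and cytokinesis kinesins Kif11, Kif20a and Kif23, and Cenph and Cenpv; the one that rose was Cenpl. The 7 make up 23.3% of the tested genes, beside 14.2% of all genes tested that were called lower, and the 1 makes up 3.33%, beside 6.54% called higher. Bub1b, Kif11 and Cenpv would not have passed the filter without their oocyte libraries, the group where they were high, so their difference was built into the choice and is given as a description, with no p. Without such genes 4 of 27 members (14.8%) and 11% of all genes were called lower. FPKM are relative to each library, so they do not show the amount of an mRNA in an oocyte or embryo. The FPKM of all genes summed to 450124 and 458874 in MII oocytes and to 196312 and 203645 in 2-cell controls. Values were not rescaled to these sums, so falls from the oocyte were not separated from this difference.

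Bub1b encodes BubR1, the subunit of the mitotic checkpoint complex that blocks the APC/C, and lies on chromosome 2, bases 118598211 to 118641591. It was at 423 and 678 FPKM in MII oocytes, 0.132 and 0.432 in 2-cell controls, 0.312 and 0.521 in 2-cell Ago2 kd, 0.373 and 0.0277 in 4-cell controls and 0.178 and 0.887 in 4-cell Ago2 kd embryos. The oocyte libraries stood far above the other 8, which did not reach 1 FPKM. The difference to the 2-cell stage was -8.72 on the log2 scale. Its transcript end, printed above, holds TTTTATAATAAA, in which the polyadenylation element is followed directly by the signal. The end of Aurkb, a gene not called in any comparison, holds the same letters.

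None of the other 6 checkpoint genes was called at this step. Bub1, the kinase that marks centromeric histone H2A, was at 0.357 and 0.800 FPKM in oocytes and 1.46 and 14.4 in 2-cell controls. Bub3, which brings Bub1 and BubR1 to the kinetochore, was at 3.27 and 4.05 and 4.11 and 4.68 FPKM. Both genes had groups that did not overlap, with the 2-cell libraries higher, but their log2 changes of 1.98 (SE 0.94) and 0.21 (SE 0.39) had adjusted p of 0.203 and 0.810. Mad2l1, the checkpoint protein Mad2 that binds Cdc20, was at 39.4 and 39.6 FPKM in oocytes and 15.6 and 33.0 in 2-cell controls. Mad2l2, a Mad2-like protein of translesion DNA synthesis, was at 28.6 and 27.9 FPKM in oocytes and 0.0538 and 0.928 in 2-cell controls. The log2 change of Mad2l2, -4.36 (SE 2.01), had an adjusted p of 0.190, and Mad2l2 was called lower with only the groups compared in the model and without either 4-cell Ago2 kd library. Mad1l1, the anchor of Mad2 at the kinetochore, was at 9.08 and 11.4 FPKM in oocytes and at 9.69 and 0 in 2-cell controls, so its replicates disagreed.

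Kif11, Kif20a and Kif23 were present in oocytes, while both 2-cell controls list them at 0, so no fold is given. Kif11 was at 16.02 and 20.1 FPKM in MII oocytes and listed at 0 in each of the 8 embryo libraries, and it passed the filter through its oocyte libraries alone. Kif20a, which carries the chromosomal passenger complex to the central spindle, was at 17.7 and 64.3 FPKM in oocytes. Kif23, a motor of the centralspindlin complex in cytokinesis, was at 31.4 and 19.7 FPKM there. The adjusted p were 0.00162 for Kif20a and 0.0319 for Kif23. Cenpe, a kinesin that moves chromosomes along spindle microtubules, was at 134 and 96.3 FPKM in oocytes and 0.411 and 0.468 in 2-cell controls, a log2 change of -6.32 (SE 1.77) with an adjusted p of 0.0465. The calls of Cenpe and Kif23 were each lost in 8 of the 10 fits that left out 1 library, in which the adjusted p reached 0.195 and 0.161. These were all the fits except those without a 4-cell Ago2 kd library. The call of Cenpe was also lost in 4 of the 7 other settings, and that of Kif23 in 1. The calls of Kif20a and Cenph held in all 10 fits that left out 1 library, though that of Cenph was lost under quantile normalization (adjusted p 0.150). Kif20a was listed at 0 in 6 libraries, which add no spread to its shared estimate, so its SE may be too small.

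The CCAN genes did not move together. Cenph, a subunit that links the CCAN to the outer kinetochore, was at 488 and 536 FPKM in oocytes and 112 and 108 in 2-cell controls, a log2 change of -2.20 (SE 0.37) with an adjusted p of 0.00677. Cenpl was at 4.76 and 4.07 FPKM in oocytes and 32.7 and 39.4 in 2-cell controls, a log2 change of 2.77 (SE 0.53) with an adjusted p of 0.0113. Cenpl and Cenpn encode the pair that reads the CENP-A nucleosome, and in the same libraries Cenpn was at 690.0 and 619 FPKM in oocytes and 253 and 202 in 2-cell controls. The Cenpn groups did not overlap, but the log2 change of -1.53 (SE 0.62) had an adjusted p of 0.141. Without either oocyte library or without replicate 2 of the 2-cell controls the call of Cenpl was lost, with an adjusted p of up to 0.0663. Cenpv, a centromere protein that helps to place the chromosomal passenger complex, was at 22.4 and 17.1 FPKM in oocytes and 0.175 and 0.140 in 2-cell controls. Cenpf, a large protein of the outer kinetochore, was at 49.2 and 157 FPKM in oocytes and 0.808 and 17.4 in 2-cell controls, and its log2 change of -3.95 (SE 1.51) was not called (adjusted p 0.119).

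Counted without a test, the groups of 15 of the 30 genes lay lower without overlap in 2-cell controls and those of 4 lay higher, beside 37% and 25% of all genes tested. The 15 include Bub1b, Kif11 and Cenpv, whose difference was built into the filter, and the genes behind the 37% also include such genes. The median log2 change was -0.91 over the 30 genes and -0.06 over the 8726. Without the 3 genes that a group lists at 0 (Kif23, Kif11 and Kif20a) it was -0.77, against -0.30 over the 6631 genes left of all. Bub1b and Cenpv are still in the median of -0.77.

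**Figure D2:**
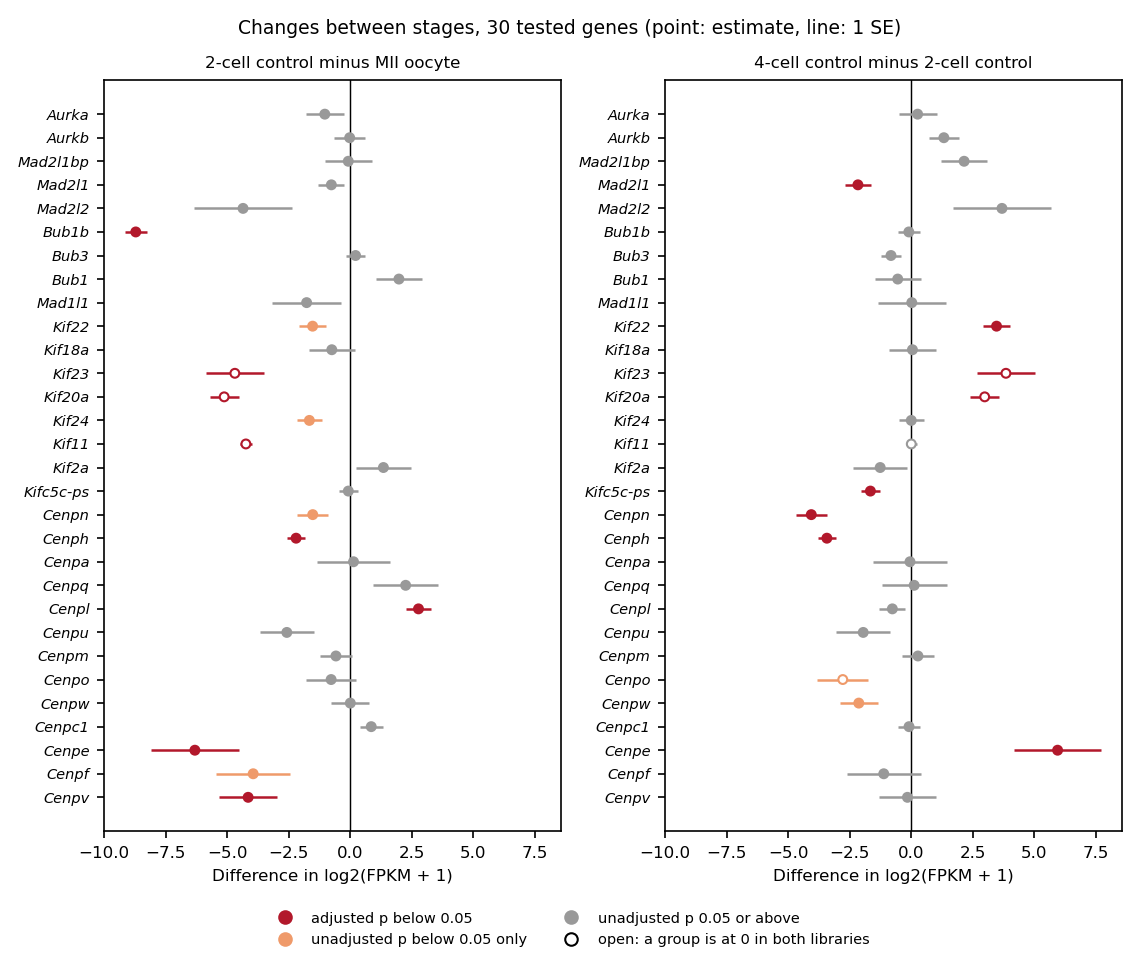
Difference in log2(FPKM + 1) between successive control groups for the 30 tested genes, with 1 SE from limma on each side. Bub1b lies lowest on the left at -8.72, Cenpe at -6.32 on the left and 5.95 on the right, and Cenph is below 0 in both panels; open points have a group listed at 0 in both libraries and are not folds, and Bub1b, Kif11 and Cenpv passed the filter through the oocyte libraries, so their place on the left is no test.

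From the 2-cell to the 4-cell control embryo, 4 of the 30 genes fell and 4 rose. Those that fell were Cenpn, Cenph, Mad2l1 and the pseudogene Kifc5c-ps, and those that rose were Kif20a, Kif22, Kif23 and Cenpe. Each count is 13.3% of the tested genes, while 17.5% of all genes tested were called lower and 21.1% higher. Of the members that rose, 3 are kinesins by name and Cenpe is a kinesin by its motor domain. The other 4 of the 7 spindle kinesins tested, Kif2a, Kif11, Kif18a and Kif24, were not called at this step.

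Kif22, on chromosome 7, bases 127027729 to 127042471, was at 24.9 and 60.6 FPKM in oocytes, 11.2 and 14.6 in 2-cell controls and 145 and 159 in 4-cell controls. Its 4-cell values were the highest of the control series and its 2-cell values the lowest, with no overlap at either step. The log2 change from the 2-cell stage was 3.47 (SE 0.55) with an adjusted p of 0.00317, and this call held in all 10 fits without a library. From the oocyte to the 4-cell stage the log2 change was 1.93 (SE 0.55) with an adjusted p of 0.0237. That call was lost without replicate 1 of the oocytes or without either 4-cell control library (adjusted p up to 0.124), without the filter and with only the groups compared. Kif22-ps, a pseudogene that could share reads with it, did not exceed 0.00987 FPKM.

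Cenpe, Kif20a and Kif23 fell and then rose. Cenpe was at 124 and 62.0 FPKM in 4-cell controls, near its oocyte level, after 0.411 and 0.468 at the 2-cell stage, a log2 change of 5.95 (SE 1.77) with an adjusted p of 0.0361. Kif20a was at 5.495 and 8.63 FPKM and Kif23 at 11.8 and 15.1 FPKM in 4-cell controls, after 0 in both libraries of the 2-cell controls, with adjusted p of 0.00789 and 0.0398. The call of Kif20a held in all 10 fits that left out a library, with the limit given above for its values of 0. Those of Cenpe and Kif23 were lost in the same 8 of the 10 as at the earlier step. These 3 are the genes of the 30 called lower at the earlier step and higher at the later one, a sequence of calls found in 2.95% of all genes tested.

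The FPKM of Cenpn and Cenph fell between the 2-cell and the 4-cell stage. Cenpn was at 253 and 202 FPKM in 2-cell controls and 25.1 and 6.05 in 4-cell controls, a log2 change of -4.07 (SE 0.62) with an adjusted p of 0.00282. Cenph was at 112 and 108 and then 10.5 and 8.23 FPKM, a log2 change of -3.43 (SE 0.37) with an adjusted p of 6.78e-04. Both calls held in all 10 fits without a library. Cenph, on chromosome 13, bases 100759674 to 100775899, was the only one of the 30 called lower at both steps, as were 2.62% of all genes tested. Mad2l1 was at 3.96 and 4.62 FPKM in 4-cell controls after 15.6 and 33.0, a log2 change of -2.17 (SE 0.53) with an adjusted p of 0.0178. This call was lost without replicate 2 of the 2-cell controls or without either 4-cell control library. It was also lost with only the groups compared (adjusted p 0.0518).

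Kifc5c-ps is a processed pseudogene related to Kifc1 and could share reads with genes of that family, so its values are uncertain. It was at 3.75 and 2.43 FPKM in 2-cell and 0 and 0.624 in 4-cell controls, a log2 change of -1.66 (SE 0.40) with an adjusted p of 0.0162. That call was lost without replicate 1 of the 2-cell controls, without replicate 1 of the 4-cell controls and with only the groups compared (adjusted p 0.0673). Mad2l1bp encodes p31comet, which takes Mad2 out of the checkpoint complex and so acts against Mad2. It was at 29.9 and 87.6 FPKM in 2-cell and 199.5 and 266 in 4-cell controls. The 4-cell libraries were higher without overlap, and the log2 change of 2.15 (SE 0.95) had an adjusted p of 0.120. Cenpw and Cenpo lay lower without overlap in 4-cell controls, Cenpw at 1.86 and 1.64 FPKM after 13.1 and 9.33 and Cenpo listed at 0 in both libraries after 3.40 and 9.79. Their adjusted p were 0.0665 and 0.0725.

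Without a test, 8 of the 30 genes lay lower and 7 higher without overlap at this step, beside 30.2% and 38.4% of all genes tested. The median log2 change was -0.07 over the 30 genes and 0.24 over all genes. Scaling moved the latter: it fell by 0.227 when libraries were scaled to the same median and by 0.218 under quantile normalization, and rose by 0.138 with a pseudocount of 0.1. Under these scalings 4 members were called higher each time, and 5 lower.

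Over the whole interval, from MII oocyte to 4-cell control, 12 of the 30 genes (40%) were lower and 2 (6.67%) higher, beside 26.3% and 22% of all genes tested. Those lower were Bub1b, Mad2l1, Kif11, Kif20a, Kif24, Kifc5c-ps, Cenpf, Cenph, Cenpn, Cenpo, Cenpu and Cenpv. Those higher were Kif22 and Cenpl. Without Bub1b, Kif11 and Cenpv, which passed the filter through their oocyte libraries, 9 of 27 (33.3%) were lower, beside 23.2% of all genes left. Among these 9 the largest log2 changes were -5.63 (SE 0.37) for Cenph and -5.59 (SE 0.62) for Cenpn, with adjusted p of 4.98e-05 and 4.50e-04. Cenpu, a subunit of the CENP-OPQUR complex, was at 66.0 and 64.4 FPKM in oocytes, 24.0 and 3.90 in 2-cell controls and 6.46 and 0.0941 in 4-cell controls, a log2 change of -4.53 (SE 1.09) with an adjusted p of 0.0126. Cenpo, of the same complex, was at 20.7 and 5.44 FPKM in oocytes, and its adjusted p was 0.0258. Cenpf was at 0.266 and 4.58 FPKM in 4-cell controls, a log2 change from the oocyte of -5.07 (SE 1.51) with an adjusted p of 0.0290. Kif24, a centriolar kinesin, was at 4.96 and 4.84 FPKM in oocytes and 0.991 and 0.742 in 4-cell controls, a log2 change of -1.66 (SE 0.51) with an adjusted p of 0.0331. Cenpl, at 34.3 and 12.3 FPKM in 4-cell controls, had a log2 change of 2.00 (SE 0.53) with an adjusted p of 0.0180. Kif20a, despite its rise after the 2-cell stage, stayed below its oocyte level, with a log2 change of -2.14 (SE 0.59) and an adjusted p of 0.0217. The calls of Cenph, Cenpn and Mad2l1 held in all 10 fits without a library. Those of Cenpu, Cenpo, Cenpf, Kif24 and Cenpl were each lost in 3 or 4 of them, all fits without an oocyte or a 4-cell control library, and those of Kif20a and Kifc5c-ps without replicate 1 of the 4-cell controls. The call of Kif24 was also lost in 4 of the 7 other settings (adjusted p up to 0.159). Replicate 1 of the 4-cell controls weighed most on the count: without it 6 genes were called lower and 0 higher, and without replicate 1 of the oocytes 7 and 1. The 3 comparisons between control stages share libraries, so their counts are not independent.

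**Figure D3:**
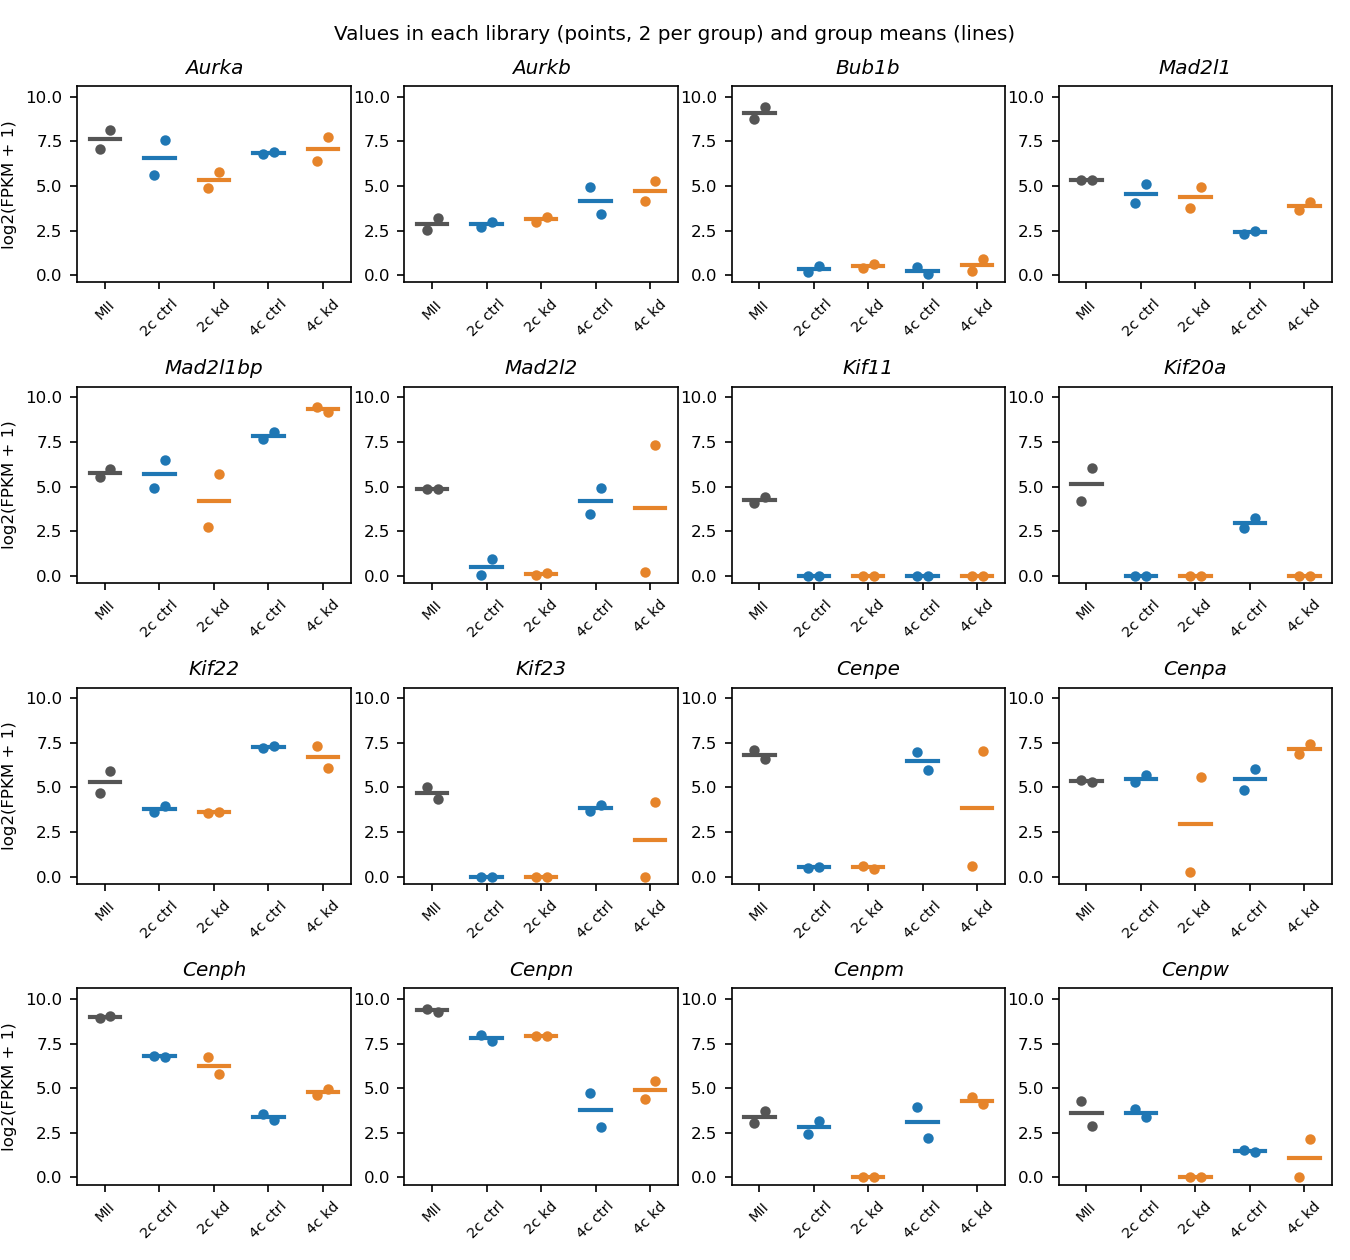
log2(FPKM + 1) of 16 of the genes in each library (points, 2 per group), with group means as lines, for MII oocytes (grey), controls (blue) and Ago2 kd embryos (orange) at the 2-cell (2c) and 4-cell (4c) stages. Bub1b and Kif11 are high in the oocyte alone, Cenph and Cenpn step down at both stages, Kif20a, Kif23 and Cenpe dip at the 2-cell stage, and several pairs of points in an Ago2 kd group lie far apart.

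Both Aurora kinases were expressed at every stage and neither was called in any comparison. Aurka, the kinase of spindle poles, was at 135 and 282 FPKM in MII oocytes, 47.7 and 186 in 2-cell controls, 28.2 and 54.1 in 2-cell Ago2 kd, 109 and 118 in 4-cell controls and 82.9 and 214 in 4-cell Ago2 kd embryos. Aurkb, the kinase of the chromosomal passenger complex, was lower: 4.82 and 8.27 FPKM in oocytes, 5.54 and 6.98 in 2-cell controls, 6.97 and 8.70 in 2-cell Ago2 kd, 29.6 and 9.69 in 4-cell controls and 16.8 and 37.1 in 4-cell Ago2 kd embryos. Every library had more Aurka than Aurkb, on the FPKM scale, which accounts for length. From the 2-cell to the 4-cell control the groups of Aurkb did not overlap and its log2 change was 1.32 (SE 0.62) (adjusted p 0.142), whereas those of Aurka overlapped (log2 change 0.26 (SE 0.77)).

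Cenpa, the centromeric histone itself, was at 41.8 and 38.9 FPKM in oocytes, 38.9 and 50.3 in 2-cell and 27.5 and 65.7 in 4-cell controls. These groups overlapped at each step, and the log2 changes were 0.13 (SE 1.504) and -0.05 (SE 1.504). Kif18a, which damps the movements of aligned chromosomes, was at 44.8 and 52.7 FPKM in oocytes, 30.3 and 26.8 in 2-cell and 24.3 and 35.6 in 4-cell controls and was not called at a control step. Cenpq and Cenpm, also not called there, were at 23.5 and 0.0725 and 7.21 and 12.4 FPKM in oocytes, 21.9 and 25.0 and 4.39 and 8.12 in 2-cell controls, and 41.7 and 15.3 and 14.5 and 3.61 in 4-cell controls. In all, 18 of the 30 genes were called at neither step, as were 50.7% of all genes tested, and with 2 libraries per group a missed call does not show that a gene kept its level.

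Partner genes of the same machinery, 60 in 6 lists (outer kinetochore, checkpoint partners, passenger complex and cohesion, CENP-A loading, spindle, APC/C), had 57 rows, of which 48 were tested. From oocyte to 2-cell control, 12 of the 48 (25%) fell and 0 rose, beside 14.2% and 6.54% of all genes tested. An unadjusted p below 0.05 was found for 2 that were higher and 16 that were lower, beside 11% and 21.6% of all genes. From 2-cell to 4-cell control 5 (10.4%) fell and 7 (14.6%) rose, beside 17.5% and 21.1%, and from oocyte to 4-cell control 12 (25%) were lower and 5 (10.4%) higher, beside 26.3% and 22%. Among those that fell at the earlier step were Dsn1 of the Mis12 complex, at 463 and 445 FPKM in oocytes and 0.199 and 0.120 in 2-cell controls, and Cdc20, the APC/C activator that Mad2 binds, at 482 and 539 and 0.176 and 58.8 FPKM. Ndc80, the microtubule-binding subunit of the outer kinetochore, was at 122 and 117 FPKM in oocytes and at a listed 0 in the 2-cell controls. All 3 were called higher again at the 4-cell stage, where the controls were at 105 and 67.8 FPKM for Dsn1, 437 and 440.1 for Cdc20 and 29.6 and 18.6 for Ndc80. The 2-cell controls of Cdc20 disagreed, and its adjusted p were 0.0450 for the fall and 0.0323 for the rise. For the rise of Ndc80 the adjusted p was 0.0355. Calls of partner genes were not checked with a library left out or under other settings. Nuf2, the partner of Ndc80, went the other way at that step, from 159 and 105 FPKM in 2-cell controls to 0 and 0.120 in 4-cell controls, a log2 change of -6.94 (SE 0.95) with an adjusted p of 0.00174. Cdca8, the passenger-complex subunit borealin, was at 201 and 259 and then 2.40 and 2.35 FPKM, and Anapc10 of the APC/C at 32.9 and 22.5 and then 4.19 and 7.04 FPKM. Trip13, the ATPase that works with p31comet, was listed at 0 in oocytes and 2-cell controls and was at 102 and 85.8 FPKM in 4-cell controls.

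At the 2-cell stage, no gene of the 51 was called between Ago2 kd and control embryos after adjustment by limma. All genes tested gave 0.55% of calls in either direction. At an unadjusted p below 0.05, 3 of the 30 (10%) were lower and 0 higher, beside 3% and 2.96% of all genes tested. These were Cenpm, Cenpw and Kif18a. Cenpm, a CCAN subunit, was at 4.39 and 8.12 FPKM in controls and listed at 0 in both Ago2 kd libraries (unadjusted p 0.00334, adjusted p 0.218). Cenpw was at 13.1 and 9.33 FPKM in controls and likewise listed at 0 in both (unadjusted p 0.00237, adjusted p 0.180). Kif18a was at 30.3 and 26.8 FPKM in controls and 9.18 and 0.0480 in Ago2 kd embryos, a log2 change of -3.17 (SE 0.94) with an adjusted p of 0.444. Both Ago2 kd libraries were below both controls for these 3 genes, and those of Kif18a differed greatly from each other. Without replicate 1 of this Ago2 kd group Kif18a and Cenpv were called, and without replicate 2 Cenpa was called. Cenpa was at 38.9 and 50.3 FPKM in controls and at 0.206 and 46.9 in Ago2 kd embryos, so only 1 of its Ago2 kd libraries differed.

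The genes named above as lower after the oocyte stage, and Cenpn, were not called at the 2-cell stage between Ago2 kd and control embryos. Cenph was at 105 and 54.5 FPKM in Ago2 kd and 112 and 108 in control embryos, a log2 difference of -0.54 (SE 0.37) with an adjusted p of 1. Cenpn was at 239.8 and 238 and 253 and 202 FPKM, a log2 difference of 0.08 (SE 0.62). Kif11, Kif20a and Kif23 were listed at 0 in both groups, and Cenpe was at 0.504 and 0.373 and 0.411 and 0.468 FPKM. Cenpv was at 0.0918 and 19.3 FPKM in Ago2 kd and 0.175 and 0.140 in control embryos, a log2 difference of 2.02 (SE 1.18) with an adjusted p of 1. Its replicates disagreed: replicate 2 of the Ago2 kd group was at the oocyte level and the other 3 libraries were near 0.

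At the 4-cell stage, 1 of the 30 genes (3.33%), Kif20a, was called lower in Ago2 kd embryos and 0 were called higher, beside 2.77% and 1.23% of all genes tested. Kif20a was at 5.495 and 8.63 FPKM in controls and listed at 0 in both Ago2 kd libraries, with an adjusted p of 0.0435. This call was lost in the 8 fits that left out an embryo library, among them that without replicate 1 of the Ago2 kd group (adjusted p 0.0962), and kept in the 2 without an oocyte library. It was also lost in 5 of the 7 other settings, with an adjusted p of up to 0.249. Kif23, with which Kif20a shares its role in cytokinesis, was at 11.8 and 15.1 FPKM in controls and at 0 and 16.9 in Ago2 kd embryos, and Cenpe was at 124 and 62.0 and 0.543 and 129 FPKM. In both genes the low value came from replicate 1 of the Ago2 kd group, the library with the most values near 0, and replicate 2 was at the control level.

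At an unadjusted p below 0.05, 3 genes were higher in 4-cell Ago2 kd embryos and 1 lower, beside 7.37% and 8.07% of all genes tested; the 4 make up 13.3% of the 30, and 15.4% of all genes passed in either direction. The 3 were Cenph, Mad2l1 and Bub3. Cenph was at 10.5 and 8.23 FPKM in controls and 23.1 and 30.1 in Ago2 kd embryos, a log2 change of 1.41 (SE 0.37) with an unadjusted p of 0.00680 and an adjusted p of 0.107. Mad2l1 was at 3.96 and 4.62 FPKM in controls and 11.3 and 16.2 in Ago2 kd embryos, a log2 change of 1.46 (SE 0.53) (unadjusted p 0.0290, adjusted p 0.243). Bub3 was at 2.63 and 1.55 FPKM in controls and 6.69 and 4.12 in Ago2 kd embryos, a log2 change of 1.05 (SE 0.39) (unadjusted p 0.0315, adjusted p 0.257). The groups did not overlap for any of the 3, and without replicate 1 of the Ago2 kd group the adjusted p were 0.114 for Cenph, 0.233 for Mad2l1 and 0.390 for Bub3. Cenph and Mad2l1 are also among the genes that fell between the 2-cell and the 4-cell control, a comparison that shares the 4-cell control libraries with this one.

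Without a test, 8 of the 30 genes lay higher without overlap in 4-cell Ago2 kd embryos and 1 lower, beside 20.1% and 16.9% of all genes tested. The 8 were Cenpa, Cenph, Cenpl, Cenpm, Kif18a, Mad2l1, Mad2l1bp and Bub3. Mad2l1bp was at 199.5 and 266 FPKM in controls and 707 and 592 in Ago2 kd embryos, the former being the highest value of any of the 51 genes in any library, and the log2 change of 1.49 (SE 0.95) had an adjusted p of 0.546. Cenpa was at 27.5 and 65.7 FPKM in controls and 115 and 175 in Ago2 kd embryos (log2 change 1.72 (SE 1.504), adjusted p 0.692). The median log2 change was 0.28 over the 30 genes and 0.00 over all genes tested, and 0.41 and 0.03 without genes that a group lists at 0. Sums of stage markers also differed in these libraries. The 6 oocyte markers summed to 30.9 and 6.91 FPKM in Ago2 kd embryos against 5.47 and 2.78 in controls. Zp3 gave 23.5 of the 30.9 FPKM and was listed at 0 in replicate 2 and in both controls. Gdf9 overlapped between the groups, at 2.98 and 3.96 against 5.40 and 1.13 FPKM, and Mos was at 4.39 and 2.95 against 0.0699 and 1.57. The 4 markers of the 2-cell stage summed to 25.1 and 28.9 FPKM against 7.21 and 2.47. The part of these markers in the result was not tested.

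**Figure D4:**
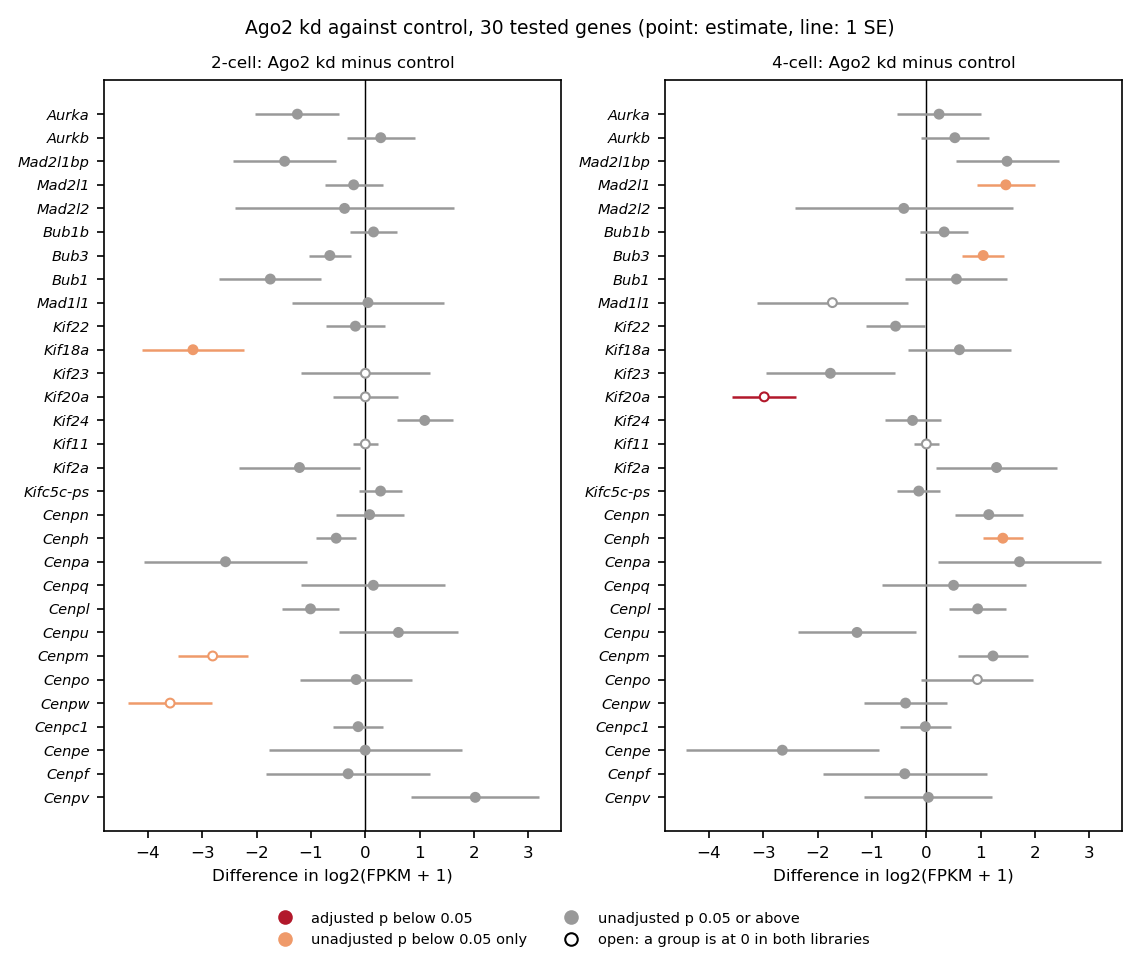
Difference in log2(FPKM + 1) between Ago2 kd and control embryos at each stage for the 30 tested genes, with 1 SE from limma on each side. Kif20a at the 4-cell stage is the only red point, Cenpm, Cenpw and Kif18a lie lowest at the 2-cell stage, and Cenph, Mad2l1 and Bub3 lie above 0 at the 4-cell stage; open points have a group listed at 0 in both libraries and are not folds.

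The difference between the effects at both stages was tested as an interaction. No gene of the 51 was called, beside 2.28% of all genes tested. An unadjusted p below 0.05 was found for 7 of 30 (23.3%), beside 13.4% of all genes tested, 6.27% higher and 7.11% lower. Of these 7, Bub3, Cenph, Cenpl, Cenpm, Cenpw and Kif18a had the higher Ago2 kd effect at the 4-cell stage and Kif20a the lower. For Cenph the interaction was 1.94 (SE 0.52) on the log2 scale with an adjusted p of 0.150. For Cenpl it was 1.95 (SE 0.75) (12.9 and 23.2 FPKM in Ago2 kd against 32.7 and 39.4 in control 2-cell embryos, and 39.6 and 41.8 against 34.3 and 12.3 at the 4-cell stage), with an adjusted p of 0.319. For Kif18a it was 3.78 (SE 1.33), with 49.2 and 41.9 FPKM in 4-cell Ago2 kd and 24.3 and 35.6 in 4-cell control embryos and an adjusted p of 0.278. Cenpm returned to 21.6 and 16.3 FPKM in 4-cell Ago2 kd embryos beside 14.5 and 3.61 in controls, with an adjusted p of 0.0881 for the interaction, the lowest of the 30. Cenpw was at 0 and 3.44 FPKM in 4-cell Ago2 kd embryos beside 1.86 and 1.64 in controls, and its adjusted p was 0.254. For Bub3, at 2.42 and 2.42 FPKM in 2-cell Ago2 kd and 4.11 and 4.68 in 2-cell control embryos, the interaction was 1.70 (SE 0.55) with an adjusted p of 0.234. For Kif20a, listed at 0 in 3 of the 4 groups compared, the adjusted p was 0.167.

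Of the 48 partner genes tested, 0 were called by limma at the 2-cell stage between Ago2 kd and control embryos, beside 0.55% of all genes tested, and 0 had an unadjusted p below 0.05. At the 4-cell stage Spc25 was called higher and Anapc7 and Cdc27 lower, 2.08% and 4.17% of the 48, beside 1.23% and 2.77% of all genes. Spc25, a subunit of the Ndc80 complex, was at 1.22 and 0.974 FPKM in controls and 18.1 and 12.2 in Ago2 kd embryos, a log2 change of 2.92 (SE 0.58) with an adjusted p of 0.0433. Cdc27, a core subunit of the APC/C, was at 27.2 and 29.9 FPKM in controls and 0.129 and 0.118 in Ago2 kd embryos, a log2 change of -4.72 (SE 0.51) with an adjusted p of 0.00349. Anapc7, of the same arm of that complex, was at 46.0 and 30.3 and 9.26 and 7.12 FPKM, a log2 change of -2.07 (SE 0.38) with an adjusted p of 0.0316. Cdc27 was the only one of the 48 called in the interaction, beside 2.28% of all genes tested (adjusted p 0.0194). Both Cdc27 and Anapc7 also rose between the 2-cell and 4-cell controls, from 0.0947 and 0.119 FPKM for Cdc27 and 1.47 and 2.12 FPKM for Anapc7. That comparison shares the 4-cell control libraries with the Ago2 kd comparison, so the rise is not independent of the lower calls. The calls of Spc25, Cdc27 and Anapc7 were not checked with a library left out.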

How the data were processed

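The authors sequenced RNA of MII oocytes and of control and Ago2 kd embryos at the 2-cell and 4-cell stages, 2 libraries per group and 10 in all; groups and replicate numbers come from the sample labels. Nothing states that the 2 libraries came from separate collections, so p-values measure the spread between these libraries, which may be technical. The authors used FastQC, Trim Galore, HISAT2 2.1.0 (GRCm38.p6, mm10), HTSeq-count and StringTie, and deposited FPKM of 21437 gene names in each library; the submitters' processing notes also name CASAVA 1.4. How several transcripts were reduced to 1 value, and whether strand was used, are not given in the sources used here, so reads of overlapping genes cannot be told apart. Read counts were not used here: depth is unknown, and the DESeq2 test of the paper was not repeated.

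The deposited FPKM were put on the scale log2(FPKM + 1), unscaled between libraries, and fitted with limma 3.58.1 (R 4.3.3): 1 mean per group, 10 libraries, empirical Bayes with a trend on the mean, 5 residual degrees of freedom and a median prior of 1.89. Differences are on this scale, which understates changes of low genes. Genes reaching 1 FPKM in 2 or more libraries, 8726 in all, were tested, two-sided, with Benjamini-Hochberg adjustment; the fit was also tested on simulated data. Counts at an unadjusted p of 0.05, the threshold of the paper, are given beside it. Tables were made with Python 3.11.15 and pandas 2.3.3, figures with matplotlib 3.10.9. Positions and transcript ends come from GENCODE M21, promoters from RefSeq. Of 47 promoter windows, 37 ended in an annotated transcript of their gene on the same strand.

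The members, their roles and the lists of partner and marker genes were chosen with earlier results of these data known. The text names 20 fixed genes, up to 8 members in each direction per control comparison with the largest change among those called without overlap, every member with an unadjusted p below 0.05 in an Ago2 kd comparison or the interaction, and up to 3 called partner genes per comparison; other genes that are named were chosen after their values were seen. Alternatives were a pseudocount of 0.1, no filter, the replicate number in the model, libraries scaled to 1 common median, quantile normalization, only the groups compared, no trend, an unadjusted p, and leaving out each library. They were read for the members only, not for the partner genes. Labels number the replicates alike in every group, but the deviations of same-numbered libraries correlated by only -0.0931 to 0.0924 across genes, so libraries were not paired.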

Additional observations from a re-analysis of the deposited data

How the results depend on the processing

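Each group has 2 libraries, so each call rests on a spread shared over 5 groups, and FPKM hold no counts from which the depth behind a value could be read. From MII oocyte to 2-cell control, 4 members were lower under quantile normalization and 11 at an unadjusted p below 0.05, in place of 7. Without the filter on low values, 2 rather than 4 were higher from the 2-cell to the 4-cell control, 1 rather than 2 was higher from oocyte to 4-cell control, and 0 rather than 1 changed with Ago2 kd at the 4-cell stage. With only the groups compared in the model, 1 was higher from oocyte to 4-cell control, 0 changed with Ago2 kd at the 4-cell stage, and 1 rather than 0 in the interaction. With a pseudocount of 0.1, 1 rather than 0 changed with Ago2 kd at the 2-cell stage and 2 in the interaction. Scaling to the same median and quantile normalization each left 0 changed with Ago2 kd at the 4-cell stage. An unadjusted p below 0.05 gave 3 with Ago2 kd at the 2-cell stage, 4 at the 4-cell stage and 7 in the interaction.

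With the replicate number as a block, 0 rather than 1 changed with Ago2 kd at the 4-cell stage, and 5 rather than 7 were lower from oocyte to 2-cell control, while the other 7 counts were the same. The libraries share only a number, and Kif20a had an adjusted p of 0.0601 there.

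Leaving out 1 library in turn gave, from oocyte to 2-cell control, 4 to 8 lower and 0 to 2 higher members. The 4 came without any of the oocyte or 2-cell control libraries, the 0 higher without replicate 2 of either of these groups, and the 2 higher without replicate 1 of the 2-cell controls. From the 2-cell to the 4-cell control it gave 2 to 5 lower and 2 to 5 higher, with 2 lower without replicate 1 of the 4-cell controls and 2 higher without that library or any of the oocyte or 2-cell control libraries. From oocyte to 4-cell control it gave 6 to 13 lower and 0 to 3 higher. The 6 and the 0 came without replicate 1 of the 4-cell controls, the 3 without either 2-cell Ago2 kd library, and 7 and 8 lower, with 1 higher, without replicates 1 and 2 of the oocytes. Without replicate 2 of the 4-cell controls 8 were lower. With Ago2 kd it gave 0 to 2 at the 2-cell stage, 0 to 3 at the 4-cell stage and 0 to 2 in the interaction. The 2 and 1 at the 2-cell stage came without replicates 1 and 2 of its Ago2 kd group, and the 3 at the 4-cell stage (Cenpe, Kif23 and Mad2l2) without replicate 2 of its Ago2 kd group. A library left alone in its group was assumed to vary like the other groups.

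For the 44 changes of single genes, 748 values were computed under these alternatives except the unadjusted p. None changed direction, 626 stayed on the same side of the threshold, 113 lost the call and 9 gained it. These include Bub1b, Kif11 and Cenpv from the oocyte, which passed the filter through their oocyte libraries and whose calls say nothing of stability. The calls of Kif20a from oocyte to 2-cell control and of Cenph, Cenpn, Kif22 and Kif20a from the 2-cell to the 4-cell control held under all 17 of them.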
